A study of Bos taurus with 18 samples.

Results

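CCL20, CCL5, CX3CL1 and CXCL16 are 4 chemokine genes, grouped here because their products act on lymphocytes, monocytes and related cells. CCRL2, a gene for a chemokine-receptor-like protein, is taken with them. These 5 genes were chosen by name and matched to Ensembl identifiers through the study's lists of genes called with rbCAPG in the same samples. The files hold 36075 genes, all 5 members were found among them, and all 5 were among the 17931 genes that passed the filter on low counts. Since the identifiers come from lists of genes that the study called with rbCAPG in these samples, changes with treatment were favoured by that choice. The direction, size, separation and calls of the changes against control below are therefore not independent evidence. The rbCAPG and control samples were used in that choice, so comparisons between the proteins or between the cell types are not free of it.

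Chemokines are small secreted or membrane-held proteins that direct the migration of leukocytes carrying the matching receptor. CCL20 binds CCR6 on lymphocytes and dendritic cells, and CCL5 (RANTES) attracts T cells, monocytes and other leukocytes. CX3CL1 (fractalkine) and CXCL16 are unusual in being made as transmembrane proteins that can hold cells carrying CX3CR1 or CXCR6 and can be shed to form soluble attractants. CCRL2 is an atypical receptor that binds chemerin and presents it to neighbouring cells without signalling in the usual way. In the endometrium, the lining of the uterus, epithelial and stromal cells are both sources of chemokines, and leukocytes of several kinds are recruited around early pregnancy.

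RNA was sequenced from 18 samples of a bovine 3D endometrium-on-a-chip, in which primary endometrial epithelial cells (bEECs) grew under flow on one side of a porous membrane and primary endometrial stromal cells (bESCs) grew without flow on the other side. Over 24 h the devices received PBS as vehicle control (VC) or 1 µg/mL of a recombinant bovine protein, either CAPG (rbCAPG) or PDI (rbPDI), and the medium that carried it passed through the epithelial chamber only. CAPG is an actin-capping protein and PDI is protein disulfide isomerase, and both are released by the conceptus. Each of the 6 groups held 3 samples, replicates 1 to 3 being cells of 3 animals whose uterine tracts were in the late-luteal stage, with epithelium and stroma in a device always from the same cow.

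Total counts ran from 10072851 to 44253149 per sample, the lowest being bESCs with rbPDI, replicate 1. Levels are given as CPM, counts scaled to library size after TMM normalization, on which scale 3 reads correspond to between 0.0557 and 0.261 CPM. CPM does not correct for gene length, so levels are compared only within a gene. Only 2 of 8 epithelial, 2 of 8 stromal, 2 of 9 leukocyte and 0 of 4 endothelial markers could be matched to an identifier, so the labelled cell types were checked on few genes. The epithelial markers MUC1 and OCLN summed to between 325 and 547 CPM in VC bEECs, to between 722 and 883 CPM in treated bEECs and to between 0.351 and 3.98 CPM in bESCs, and the stromal markers HAND2 and ZEB1 to between 1.66 and 13.0 CPM in bEECs and to between 27.4 and 48.7 CPM in bESCs. In bulk RNA a lower number of cells of a type and less RNA per cell cannot be told apart.

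All 5 genes had higher levels in every sample that received a protein than in the same animal's VC sample of that cell type, 12 of 12 samples for each gene. These 12 samples come from 3 animals and are not independent. In each of the 4 comparisons with VC, the treated and VC samples of all 5 genes did not overlap, which held for 8.72% of all tested genes with rbCAPG in bEECs, 8.06% with rbPDI in bEECs, 3.02% with rbCAPG in bESCs and 4.10% with rbPDI in bESCs. Calls come from edgeR's quasi-likelihood test and needed both an adjusted p below 0.05 and a change of more than 1 on the log2 scale, up or down. With rbCAPG in bEECs 2 of 5 genes were called (0.513% of all tested genes were called higher), with rbPDI in bEECs 3 of 5 (0.770%), with rbCAPG in bESCs 1 of 5 (0.0948%) and with rbPDI in bESCs 3 of 5 (0.173%). With the animal as a block, the counts were 4, 4, 3 and 5 of 5, against 2.04%, 2.57%, 0.468% and 0.987% of all tested genes called higher. The median log2 fold change of the 5 genes was 3.97, 6.10, 3.15 and 4.09 in the same order, beside 0.02, -0.01, -0.01 and 0 over all tested genes. The 5 genes came from lists of called genes, so the shares and medians over all tested genes give a background and no test. Comparisons of rbCAPG and rbPDI with VC share the VC samples, so the values stand side by side and are not independent of each other.

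**Figure D1:**
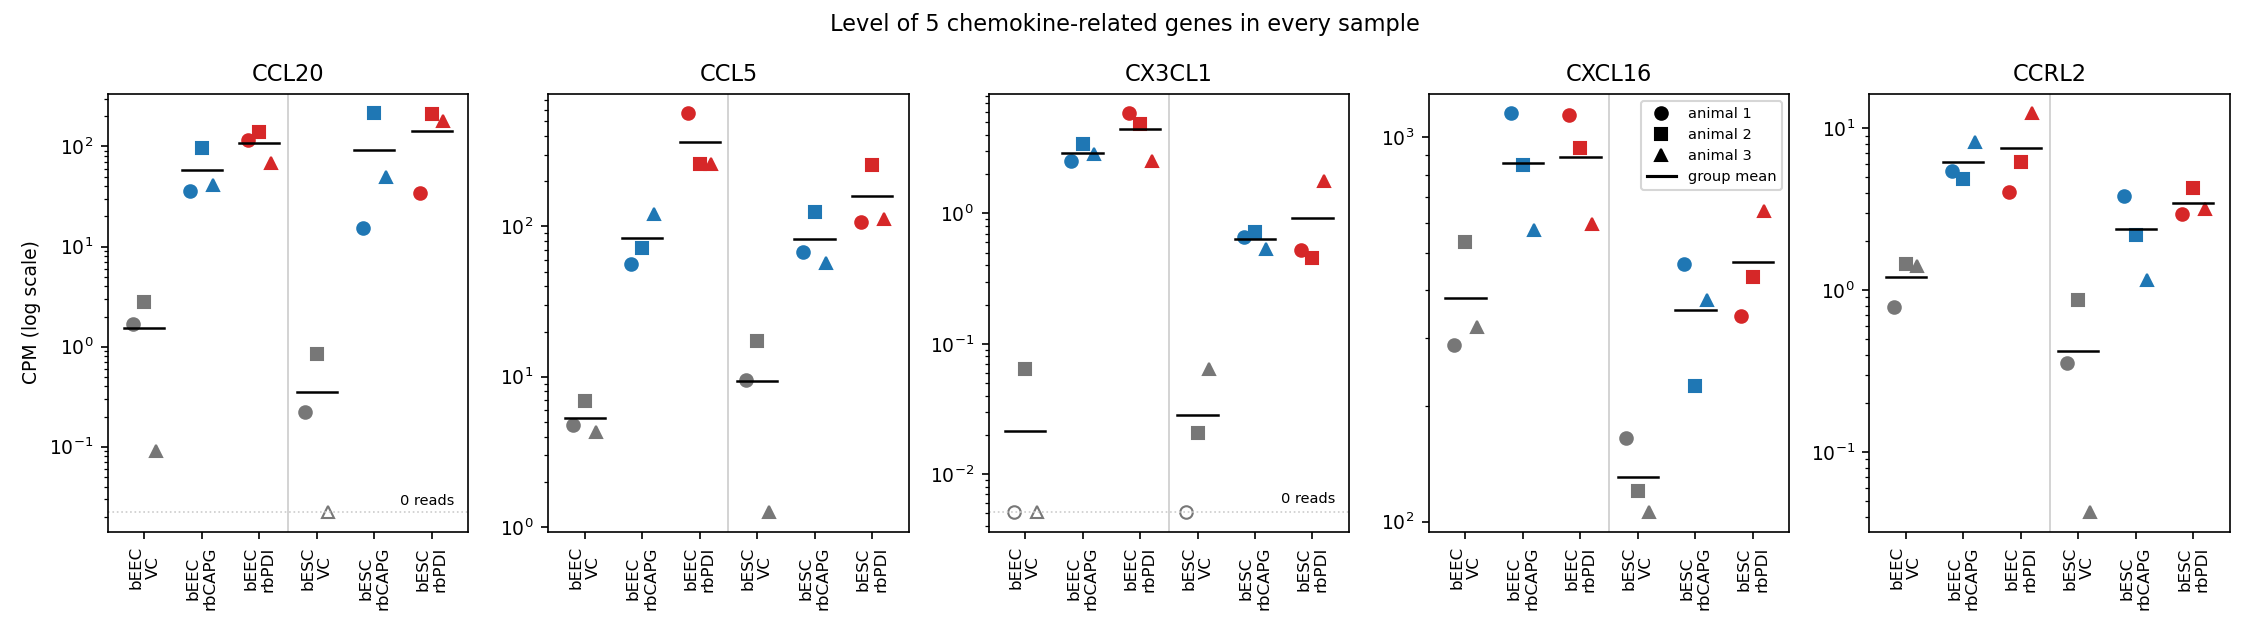
Level of each gene in all 18 samples, in CPM on a log scale, with a panel per gene, symbols for the 3 animals, a black line at each group mean, and open symbols on the dotted line for samples with 0 reads. Treated samples lie above all VC samples of the same cell type in every panel, and CCL20 and CX3CL1 were close to 0 reads in several VC samples.

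**Figure D2:**
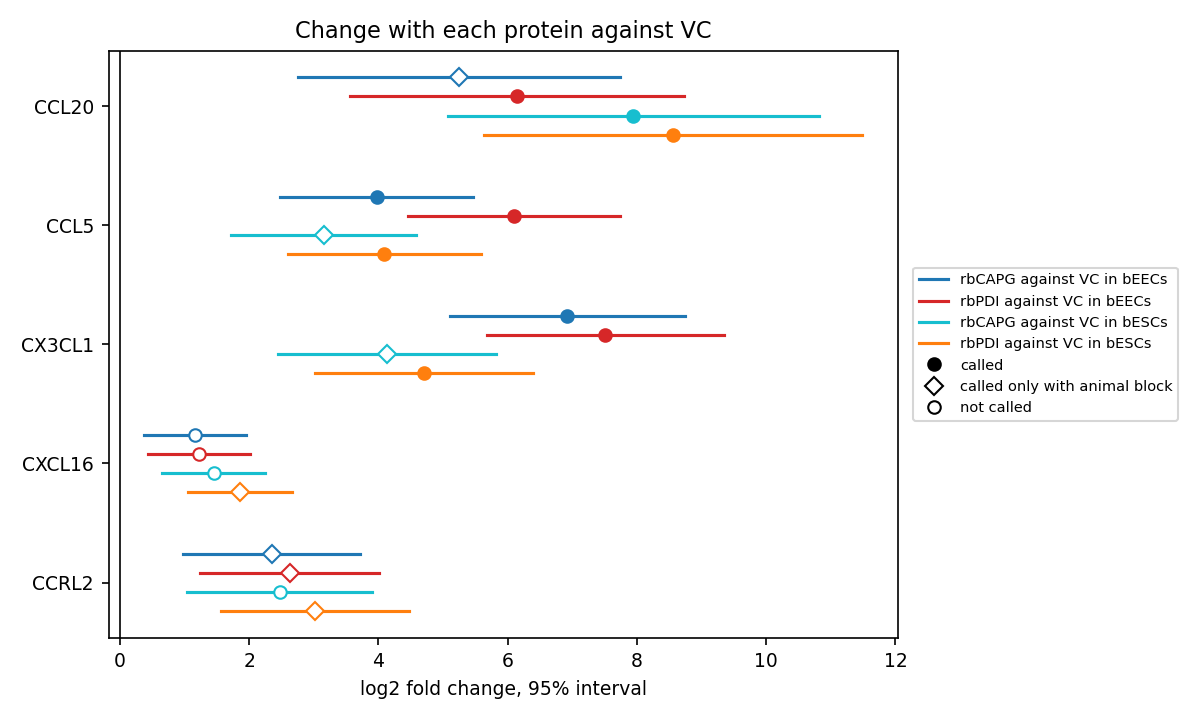
Log2 fold change of each gene against VC with its 95% interval, for rbCAPG and rbPDI in bEECs and bESCs. Filled circles mark the 9 of 20 changes that were called, open diamonds those called only with the animal as a block, and open circles those not called in either fit.

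CCL20, the CCR6 ligand, went from few or no reads with VC to at least 396 in every treated sample. In VC bEECs it had 56, 88 and 3 reads in replicates 1 to 3, or 1.69, 2.82 and 0.0897 CPM. With rbCAPG the bEEC levels were 36.3, 97.6 and 40.9 CPM, and with rbPDI 115, 140 and 69.1 CPM. The VC level was lowest in animal 3, and the ranges of the VC and treated samples were far apart. In VC bESCs there were 5, 41 and 0 reads, or 0.220, 0.846 and 0 CPM, so that animal 3 was again the lowest. With rbCAPG the bESC levels were 15.2, 214 and 49.4 CPM, and with rbPDI 34.4, 212 and 178 CPM. Animal 1 was the lowest of the 3 with either protein in bESCs, and its rbPDI value, that of 396 reads, comes from the library with the lowest total. The treated bESC samples spread more than the treated bEEC samples, by 14.0-fold from lowest to highest with rbCAPG and 6.16-fold with rbPDI, against 2.69-fold and 2.02-fold in bEECs.

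CCL20 rose with rbPDI in bEECs by 6.14 ± 1.22 on the log2 scale (SE, n = 3 per group, adjusted p = 0.0214), with rbCAPG in bESCs by 7.95 ± 1.35 (adjusted p = 0.0354) and with rbPDI in bESCs by 8.56 ± 1.38 (adjusted p = 0.0142). With rbCAPG in bEECs the log2 fold change was 5.25 ± 1.18 and missed the threshold (adjusted p = 0.0640). With the animal as a block that change was called, at 5.46 (adjusted p = 0.000666, and 0.000666 to 0.185 over the 7 alternatives). The size of these changes depends on VC values of few reads. Leaving out single samples ended the call with rbPDI in bEECs without VC replicate 1, 2 or 3 or rbPDI replicate 2 (log2 fold change 5.58 to 6.92, adjusted p 0.0514 to 0.126). It ended that with rbCAPG in bESCs without VC replicate 1, 2 or 3 or rbCAPG replicate 2 (6.42 to 10.14, adjusted p 0.0519 to 0.248), and that with rbPDI in bESCs without VC replicate 1 (8.36, adjusted p = 0.103) or 3 (7.92, adjusted p = 0.0803). In the fit to bESC samples alone, neither CCL20 change in bESCs was called (adjusted p = 0.262 with rbCAPG and 0.120 with rbPDI).

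CCL5, a ligand for T cells and monocytes, was present in all VC samples. In VC bEECs its level was 4.74, 6.88 and 4.28 CPM in replicates 1 to 3. With rbCAPG it was 56.7, 72.2 and 121 CPM, and with rbPDI 566, 261 and 263 CPM. In bEECs every rbPDI sample was above every rbCAPG sample, and every rbCAPG sample above every VC sample. In VC bESCs the level was 9.51, 17.2 and 1.26 CPM, so that animal 3 stood 13.6-fold below animal 2. With rbCAPG it was 67.3, 124 and 56.9 CPM, and with rbPDI 107, 257 and 112 CPM. In bESCs the samples of the 2 proteins overlapped, and animal 2 was the highest of the 3 in each bESC group.

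CCL5 rose in bEECs with rbCAPG by 3.97 ± 0.71 on the log2 scale (adjusted p = 0.0106) and with rbPDI by 6.10 ± 0.78 (adjusted p = 0.000370). The rbPDI change in bEECs was called in all 7 alternatives and in all 6 fits with a sample left out (adjusted p at most 0.00687). The rbCAPG change in bEECs was not called without VC replicate 1 (3.90, adjusted p = 0.0902), VC replicate 3 (3.84, adjusted p = 0.116) or rbCAPG replicate 3 (3.60, adjusted p = 0.0518). In bESCs CCL5 rose with rbPDI by 4.09 ± 0.71 (adjusted p = 0.0188), and this call was lost without VC replicate 1 (adjusted p = 0.134), without rbPDI replicate 2 (adjusted p = 0.0768) and in the fit to bESC samples alone (adjusted p = 0.198). With rbCAPG in bESCs the log2 fold change was 3.15 ± 0.68 and missed the threshold (adjusted p = 0.163), while with the animal as a block it was 3.48 and was called (adjusted p = 0.0106, and 8.33e-05 to 0.851 over the 7 alternatives).

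CX3CL1, a transmembrane chemokine that can capture CX3CR1-bearing monocytes and lymphocytes, was all but absent from VC samples. The VC bEEC samples held 0, 2.25 and 0 reads (a fraction arises where a read is shared), and the VC bESC samples 0, 1 and 3 reads. With rbCAPG the bEEC samples held 61, 115 and 95 reads, or 2.52, 3.43 and 2.83 CPM. With rbPDI they held 137, 143 and 94 reads, or 5.84, 4.88 and 2.52 CPM. In bEECs the rbCAPG and rbPDI ranges overlapped, and no treated sample came near a VC sample. In bESCs there were 24, 39 and 23 reads with rbCAPG, or 0.656, 0.723 and 0.531 CPM, and 6, 21 and 77 reads with rbPDI, or 0.522, 0.454 and 1.78 CPM. The stromal levels were thus low in every treated sample, and the highest of them, in animal 3 with rbPDI, was below the lowest treated epithelial one. Of all tested genes, 30.1% with rbCAPG and 27.8% with rbPDI were likewise higher in bEECs without overlap.

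Summed over 3 samples and scaled to library size, CX3CL1 reads in bEECs were 145 times as frequent with rbCAPG as with VC (95% interval of the count ratio 39.8 to 1204) and 203 times with rbPDI (55.8 to 1683). In bESCs the ratio was 18.9 with rbCAPG (7.13 to 71.1) and 30.3 with rbPDI (11.5 to 113). These intervals cover counting error only, and the fitted log2 fold changes depend on the prior count used for groups so near 0. CX3CL1 rose in bEECs with rbCAPG (fitted log2 fold change 6.92 ± 0.86, adjusted p = 0.000361) and with rbPDI (7.51 ± 0.87, adjusted p = 0.000128), and both calls held in all 7 alternatives and all 6 fits with a sample left out. Without VC replicate 2, the only VC bEEC sample with reads, the fitted values were 9.70 and 10.28. In bESCs it rose with rbPDI (4.70 ± 0.80, adjusted p = 0.0164). That call was lost without VC replicate 1 (adjusted p = 0.103), VC replicate 2 (adjusted p = 0.0890), VC replicate 3 (adjusted p = 0.0639) or rbPDI replicate 3 (adjusted p = 0.106), and in the fit to bESC samples alone (adjusted p = 0.174). With rbCAPG in bESCs the value was 4.13 ± 0.80 and missed the threshold (adjusted p = 0.0730), and with the animal as a block it was 4.32 and was called (adjusted p = 0.0216, and 0.000941 to 0.417 over the 7 alternatives).

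CXCL16, the other transmembrane chemokine, had at least 3750 reads in every sample, VC included. In VC bEECs its level was 288, 535 and 321 CPM in replicates 1 to 3. With rbCAPG it was 1154, 846 and 573 CPM, and with rbPDI 1141, 937 and 595 CPM. The lowest treated sample was only slightly above the highest VC sample, since animal 2 started high and animal 3 stayed low. Within animals the level with rbCAPG was 4.003, 1.58 and 1.78 times that with VC, and with rbPDI 3.96, 1.75 and 1.85 times. In VC bESCs the level was 165, 120 and 106 CPM, with rbCAPG 467, 226 and 377 CPM, and with rbPDI 344, 433 and 641 CPM. The stromal ratios to VC within animals were 2.83, 1.88 and 3.55 with rbCAPG and 2.08, 3.60 and 6.05 with rbPDI.

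None of the 4 changes of CXCL16 was called. The log2 fold changes were 1.17 ± 0.37 with rbCAPG in bEECs (adjusted p = 0.285), 1.22 ± 0.37 with rbPDI in bEECs (adjusted p = 0.192), 1.45 ± 0.38 with rbCAPG in bESCs (adjusted p = 0.443) and 1.86 ± 0.38 with rbPDI in bESCs (adjusted p = 0.0713). All 4 of the 95% intervals lay above 0, the lowest bound being 0.38. With the animal as a block only rbPDI in bESCs was called, at 1.86 (adjusted p = 0.0133, and 0.000275 to 1 over the 7 alternatives). DESeq2 called CXCL16 with rbPDI in bEECs (adjusted p = 0.0372), with rbCAPG in bESCs (adjusted p = 0.0288) and with rbPDI in bESCs (adjusted p = 0.000275), but not with rbCAPG in bEECs (adjusted p = 0.0723). Of the 18 deposited values of CXCL16, 15 were not whole, which means that some of its reads also matched another place or another gene, and how many cannot be read from the files.

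CCRL2, the chemerin-binding atypical receptor, had few reads with VC. In VC bEECs there were 26, 45 and 47 reads, or 0.786, 1.44 and 1.41 CPM. With rbCAPG the bEEC levels were 5.42, 4.86 and 8.25 CPM, and with rbPDI 4.01, 6.15 and 12.3 CPM. The treated bEEC samples lay clear of the VC samples, and animal 3 was the highest of the 3 with either protein. In VC bESCs there were 8, 42 and 2 reads, or 0.352, 0.867 and 0.0428 CPM. With rbCAPG the bESC levels were 3.83, 2.19 and 1.15 CPM, and with rbPDI 2.96, 4.28 and 3.17 CPM. The VC bESC value of animal 3 rests on 2 reads, below the floor of 3.

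None of the 4 changes of CCRL2 passed in edgeR's fit to all samples without the block. The log2 fold changes were 2.35 ± 0.65 with rbCAPG in bEECs (adjusted p = 0.169), 2.63 ± 0.65 with rbPDI in bEECs (adjusted p = 0.0792), 2.47 ± 0.68 with rbCAPG in bESCs (adjusted p = 0.523) and 3.02 ± 0.69 with rbPDI in bESCs (adjusted p = 0.118). With the animal as a block it was called with rbCAPG in bEECs (2.36, adjusted p = 0.0170, and 0.00613 to 0.954 over the 7 alternatives), with rbPDI in bEECs (2.53, adjusted p = 0.00844, and 0.000718 to 0.429) and with rbPDI in bESCs (3.27, adjusted p = 0.00727, and 0.000259 to 0.654). With rbCAPG in bESCs the blocked value was 2.55 and missed the threshold (adjusted p = 0.0535). DESeq2 called all 4 changes, with adjusted p from 0.000259 to 0.0141. Without VC replicate 2 the rbPDI value in bESCs was 4.32 and was called (adjusted p = 0.0306).

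The matched markers of other cell types were also higher in some treated groups. A marker could be matched only where the study had called it with rbCAPG in these samples. Higher levels with treatment were thus favoured by that choice and are not independent evidence. The leukocyte markers CD14 and AIF1 summed to between 12.7 and 21.0 CPM in VC bEECs, 44.7 and 58.4 CPM with rbCAPG and 53.0 and 71.5 CPM with rbPDI. In bESCs the sum ran from 4.35 to 18.3 CPM with VC, from 5.93 to 20.03 CPM with rbCAPG and from 6.38 to 14.4 CPM with rbPDI, so the groups overlapped there. AIF1 had 0, 0.5 and 0 reads in the VC bESC samples, 3, 1 and 3 with rbCAPG and 0, 1 and 0.53 with rbPDI, while CD14 was at 4.35 CPM or more in every bESC sample. The stromal markers in bEECs summed to between 1.66 and 2.91 CPM with VC, 3.89 and 13.0 CPM with rbCAPG and 4.01 and 10.5 CPM with rbPDI. The epithelial markers in bESCs summed to between 0.351 and 0.578 CPM with VC, 1.36 and 2.46 CPM with rbCAPG and 1.304 and 3.98 CPM with rbPDI. The part of these cell types in the chemokine levels was not tested, and the other 7 leukocyte markers were not analysed here.

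The 2 proteins were compared directly at the same dose and time, in a contrast that does not use the VC samples. It does use the rbCAPG samples in which the study had called these genes, so it is not free of that choice. CCL5 in bEECs was the only one of the 5 genes, in either cell type, whose rbPDI and rbCAPG samples did not overlap, which held, in the higher direction, for 2.14% of all tested genes in bEECs and 1.83% in bESCs. Its mean level was 363 ± 176 CPM with rbPDI and 83.3 ± 33.6 with rbCAPG (CPM ± SD, n = 3), and the fitted difference on the log2 scale was 2.12 ± 0.65 (95% interval 0.75 to 3.49). The unadjusted p was 0.00458 in edgeR's test and the adjusted p was 1, as for every member in both cell types, so the difference did not pass. Within animals the rbPDI level of CCL5 was 9.98, 3.61 and 2.17 times the rbCAPG level in bEECs and 1.60, 2.07 and 1.97 times in bESCs, higher in 6 of 6 pairs. The 6 pairs come from 3 animals, with both cell types of an animal in the same device, so they are not independent. In bESCs the log2 difference was 0.94 ± 0.63 (95% interval -0.39 to 2.26).

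The other 4 genes did not separate the proteins. CCL20 was higher with rbPDI than with rbCAPG in 5 of 6 pairs, CXCL16 and CCRL2 in 4 of 6 each and CX3CL1 in 3 of 6. Their log2 differences ran from 0.05 for CXCL16 to 0.89 for CCL20 in bEECs and from 0.41 for CXCL16 to 0.61 for CCL20 in bESCs. All of these 95% intervals included 0, and the widest, that of CCL20, ran from -1.16 to 2.94 in bEECs and from -1.43 to 2.65 in bESCs, which leaves room for sizeable differences either way. Across all tested genes, edgeR called 0 in bEECs and 0 in bESCs (103 genes, or 0.574%, and 319 genes, or 1.78%, at an unadjusted p under 0.05), and none of the alternatives, DESeq2 and the block included, called any gene.

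**Figure D3:**
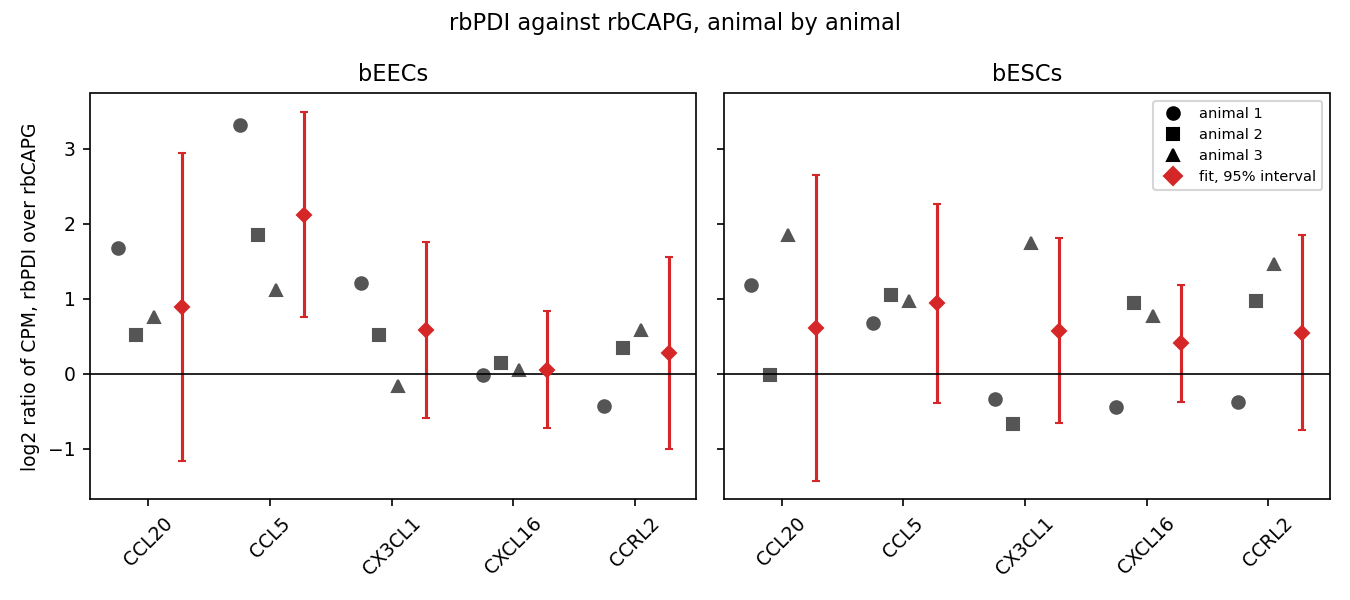
Log2 ratio of the level with rbPDI to that with rbCAPG for each animal (dark symbols) and the fitted difference with its 95% interval (red), in bEECs and bESCs. Only CCL5 has all 6 values, from the same 3 animals in both cell types, above 0, and only in bEECs does its interval exclude 0.

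Between the cell types, CXCL16 and CX3CL1 were the genes with called differences, higher in bEECs. With VC, 1 of 5 genes was called, against 38.5% of all tested genes. This was CXCL16, at 382 ± 134 CPM in bEECs and 130 ± 30.9 CPM in bESCs (SD, n = 3), a log2 difference of 1.55 ± 0.38 (adjusted p = 0.00300). Its groups did not overlap, as for 28.5% of all tested genes in that direction, and the call held in all 6 fits with a sample left out. CCL20, CCL5, CX3CL1 and CCRL2 overlapped between the cell types with VC. Their log2 differences were 2.02 ± 1.18, -0.81 ± 0.64, -0.60 ± 1.17 and 1.495 ± 0.68 in the same order, with CX3CL1 at or under 3 reads in every VC sample. Without VC bESC replicate 3 CCL5 was called lower in bEECs (-1.33, adjusted p = 0.0418), and without VC bESC replicate 2 CCRL2 was called higher (2.81, adjusted p = 0.00897).

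With rbCAPG, 2 of 5 genes were called between the cell types, against 38.9% of all tested genes, and with rbPDI 1 of 5, against 37.3%. These comparisons were added after the data were seen. CX3CL1 was higher in bEECs with both proteins, by 2.19 ± 0.59 with rbCAPG (adjusted p = 0.00574) and by 2.21 ± 0.59 with rbPDI (adjusted p = 0.00576), and both calls held in all 6 alternatives and all 6 fits with a sample left out. CXCL16 was higher in bEECs with rbCAPG by 1.27 ± 0.37 (adjusted p = 0.0104), a call that was lost without bEEC rbCAPG replicate 1 (0.99, adjusted p = 0.0566) or bESC rbCAPG replicate 2 (1.02, adjusted p = 0.0530). With rbPDI its difference was 0.91 ± 0.37 and missed the threshold (adjusted p = 0.0534). Without bEEC rbPDI replicate 3 (1.15, adjusted p = 0.0289) or bESC rbPDI replicate 3 (1.197, adjusted p = 0.0338) it was called. CCRL2 did not overlap between the cell types with rbCAPG (1.37 ± 0.62, adjusted p = 0.0772), as for 30.1% of all tested genes in that direction, and was called without bESC rbCAPG replicate 1 (1.86, adjusted p = 0.0411). CCL20 overlapped between treated bEECs and bESCs, with log2 differences of -0.67 (95% interval -2.72 to 1.37) with rbCAPG and -0.39 (-2.43 to 1.64) with rbPDI.

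**Figure D4:**
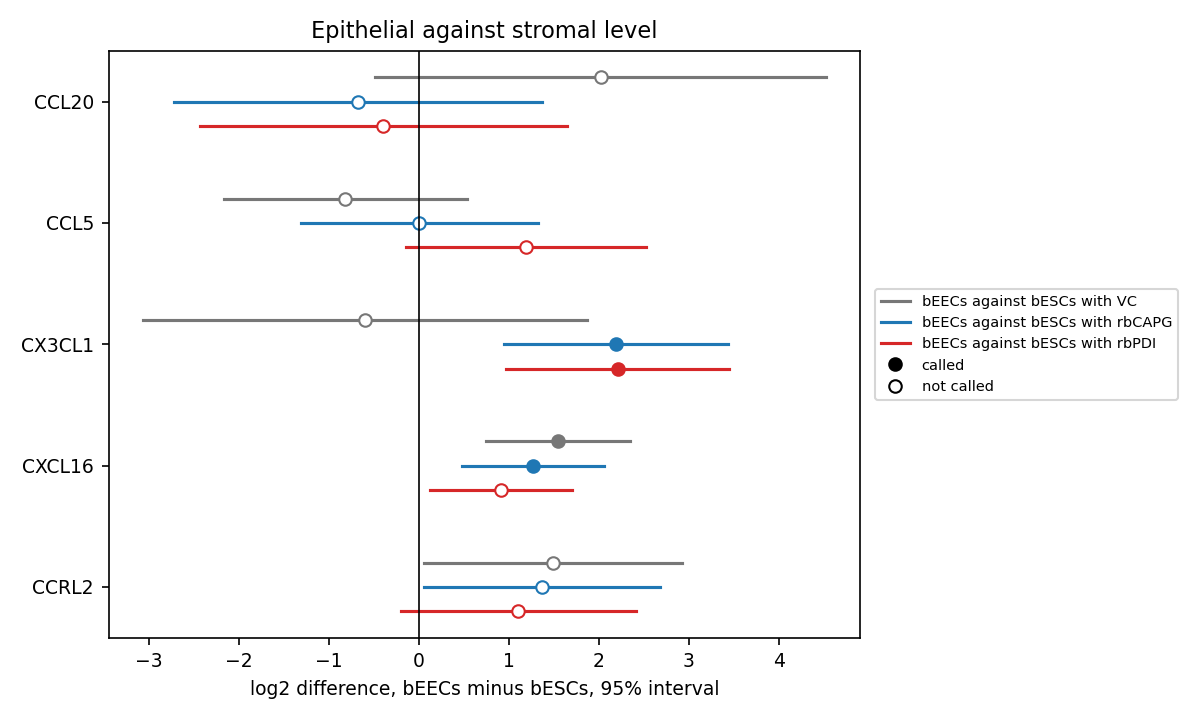
Log2 difference of each gene between bEECs and bESCs with its 95% interval, with VC, rbCAPG and rbPDI. CX3CL1 lies to the right of 0 with both proteins but not with VC, CXCL16 in all 3 conditions and CCRL2 with VC and rbCAPG. Filled circles mark the 4 called differences.

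Whether a change against VC was larger in 1 cell type was tested as a difference of the 2 log2 fold changes. The members came from lists of genes called with rbCAPG, so these differences are not independent of that choice. No member was called, for rbCAPG (0 of 5, against 0.0669% of all tested genes) or rbPDI (0 of 5, against 0.0948%) by edgeR, nor with the block (0.223% and 0.441%), nor by DESeq2. At an unadjusted p under 0.05 there was 1 member, CCL5 with rbPDI, whose change was larger in bEECs by 2.01 ± 0.90 (95% interval 0.11 to 3.90, unadjusted p = 0.0393, adjusted p = 1.00), beside 4.72% of all tested genes. With rbCAPG there was none, beside 3.42%. For CX3CL1 the difference was 2.79 (95% interval -0.14 to 5.73) with rbCAPG and 2.81 (-0.13 to 5.74) with rbPDI, larger in bEECs. For CCL20 it was -2.70 (-5.93 to 0.54) and -2.42 (-5.64 to 0.81), larger in bESCs. For CXCL16 and CCRL2 the values ran from -0.63 to -0.12.

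Ordered by mean level over the 6 groups, CCL20, CCL5, CX3CL1 and CCRL2 had both VC groups at the bottom, while for CXCL16 VC bEECs stood between the 2 treated bESC groups. For CCL20 the order was bESCs with rbPDI, bEECs with rbPDI, bESCs with rbCAPG and bEECs with rbCAPG, at 142 ± 94.3, 108 ± 35.8, 92.8 ± 106 and 58.2 ± 34.1 CPM, and each of these overlapped the next. For CCL5 bEECs with rbPDI were first and did not overlap bESCs with rbPDI, at 159 ± 84.9 CPM, as for 27.8% of all tested genes in that direction. These overlapped bEECs with rbCAPG, which overlapped bESCs with rbCAPG at 82.8 ± 36.2 CPM. For CX3CL1 the 2 treated bEEC groups, at 4.41 ± 1.71 and 2.93 ± 0.46 CPM, overlapped each other and neither treated bESC group, at 0.919 ± 0.747 with rbPDI and 0.637 ± 0.098 CPM with rbCAPG. In that direction 30.1% of all tested genes did not overlap between the cell types with rbCAPG and 27.8% with rbPDI. Between bEECs with rbCAPG and bESCs with rbPDI the share was 29.3%. For CXCL16 bEECs with rbPDI (891 ± 276 CPM) and rbCAPG (858 ± 291 CPM) came before bESCs with rbPDI (473 ± 153 CPM), VC bEECs (382 ± 134 CPM) and bESCs with rbCAPG (356 ± 122 CPM), each overlapping the next. For CCRL2 bEECs with rbPDI (7.49 ± 4.32 CPM) overlapped those with rbCAPG (6.17 ± 1.82 CPM), and the latter did not overlap bESCs with rbPDI (3.47 ± 0.71 CPM), as for 29.3% of all tested genes in that direction.

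Other genes of the pathway were read from lists of names, with the same limit on identifiers. Genes with an identifier were those that the study had called with rbCAPG in these samples. Their counts of calls, their median changes against VC and the differences between the cell types' changes are thus not independent evidence. Of 7 chemokines for neutrophils, 5 had an identifier, and 4 of these were called higher with rbCAPG and 4 with rbPDI in bEECs, and 3 with each in bESCs. Of all tested genes 0.513% and 0.770% were called higher in bEECs and 0.0948% and 0.173% in bESCs. Their median log2 fold changes were 8.09 and 8.76 in bEECs and 3.93 and 3.95 in bESCs, beside 3.97 and 6.10 in bEECs and 3.15 and 4.09 in bESCs for the 5 genes described here. With the block 5, 5, 3 and 5 of the 5 were called, against 2.04%, 2.57%, 0.468% and 0.987% of all tested genes called higher. Among them 3 of 5 had a change with rbCAPG and 4 of 5 a change with rbPDI that was called larger in bEECs than in bESCs, where none of the 5 genes described here was called. Of all tested genes 0.0669% and 0.0837% were called larger in bEECs. With VC, 4 of the 5 neutrophil chemokines were called lower in bEECs than in bESCs, against 18.9% of all tested genes. Their median log2 difference, bEECs minus bESCs, was -4.42 with VC, -0.84 with rbCAPG and -0.27 with rbPDI. NF-kB and IRF1 are transcription factors known to act at many chemokine promoters, and of a list of 15 genes for their subunits, regulators and feedback proteins, 10 had an identifier. Of these 9 were called higher with each protein in bEECs and 6 with each in bESCs, with median log2 fold changes of 2.18 and 2.27 in bEECs and 1.74 and 1.75 in bESCs. With the block 9 were called with each protein in bEECs, and 8 with rbCAPG and 9 with rbPDI in bESCs. The shares of all tested genes called higher, without and with the block, are those given above for the neutrophil chemokines. NFKBIA, the inhibitor that NF-kB itself induces, rose in bEECs with rbCAPG by 3.30 ± 0.28 (adjusted p = 9.24e-06) and with rbPDI by 3.48 ± 0.29 (adjusted p = 3.93e-06). IRF1 was not called in any of the 4 comparisons, but with the block it was called in bESCs with rbCAPG (1.44, adjusted p = 0.0273) and with rbPDI (1.43, adjusted p = 0.0148). Of 23 chemokine receptors 1, CXCR4, had an identifier and was not called with either protein in either cell type (log2 fold change 2.02 and 2.01 in bEECs, -0.04 and 0.14 in bESCs), while with the block it was called in bEECs with both. The receptors of the 5 genes described here, the sheddases ADAM10 and ADAM17 of the transmembrane chemokines and 25 other lymphocyte and monocyte chemokines were not analysed here.

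The genes most like each member were taken as the 3 with the highest Pearson correlation of log2(CPM + 1) over the 18 samples, among 185 other tested genes with a symbol. These genes come from the same lists of called genes, and the samples share the step from VC to treatment and the 2 cell types, so the values are descriptions. For CCL20 they were TNFAIP3 (r = 0.958), BIRC3 (0.919) and GRO1 (0.864), for CCL5 they were BIRC3 (0.962), NFKBIA (0.904) and IL6 (0.899), and for CX3CL1 RNF125 (0.901), CD47 (0.879) and CAPN14 (0.875). For CXCL16 they were IER3 (0.920), GCA (0.881) and PDXK (0.866), and for CCRL2 TNFRSF11B (0.896), PDXK (0.844) and GSAP (0.840). TNFAIP3, BIRC3 and NFKBIA, named for CCL20 or CCL5, are on the NF-kB list above, while no gene named for CX3CL1, CXCL16 or CCRL2 is. Of the 185 genes compared, 10 were on that list. Tested genes without a symbol here could lie closer, and between 0 and 25 tested genes had a higher r than a gene named.

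By name in the RefSeq gene table, which is of another assembly than the files, CX3CL1 lies between the chemokine genes CCL22 and CCL17, and CCL5 lies beside CCL16 and CCL14. CXCL16 lies between ZMYND15 and MED11, and the nearest named gene after CCL20 is DAW1. None of these neighbours was analysed here.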

How the data were processed

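The 18 libraries (6 groups of 3) were made from polyA RNA with the SMART-Seq v4 kit. The authors trimmed reads with Trimmomatic, aligned them with STAR and assigned them to Ensembl genes by featureCounts, dividing reads with several matches or overlapping genes into fractions. The deposited table therefore holds estimated counts with no normalization, of which 23.3% are not whole. A strand option and tool versions are not given in the sources used here, and reads of overlapping genes on opposite strands cannot be told apart.

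Values were rounded and fitted in R 4.3.3 with edgeR 4.0.16 (filterByExpr, TMM, quasi-likelihood F-test) over all 18 samples, with a mean per group and 12 residual degrees of freedom. Adjusted p-values follow Benjamini and Hochberg, over the 17931 genes that passed the filter. Calls needed an adjusted p below 0.05 and a log2 change beyond 1 in either direction. Standard errors are the log2 fold change over the square root of F. An exact permutation test of 3 against 3 samples cannot go below p = 0.1 and was not used. In chi-square tests, replicates of a group differed beyond sampling noise in all 18 pairs (93.7 to 445 per degree of freedom). Count ratios have exact conditional 95% intervals.

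The labels number biological replicates, the study's methods give 3 tracts, and each device held cells of the same animal, so replicate numbers were taken to pair the samples. Deviations from group means of same-numbered samples correlated at a mean r of 0.501 in bEECs and 0.433 in bESCs (9 pairs each, lowest 0.239 and -0.03), and at 0.164 across cell types. The fit with this replicate block within cell type (8 residual degrees of freedom) is given beside results it changes. For the levels compared between the cell types, the block was instead a term per animal shared by both cell types.

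The members, gene lists and tests were chosen with earlier results of these data known. Named genes were the 5 members, with list genes given by count and with values only where a result turns on them, and the 3 genes most like each member. Symbols came from the study's 2 lists of genes called with rbCAPG (245 identifiers, 190 with a symbol), and 0 count columns were left unused. The scripts were tested on simulated data with known changes. Alternatives were DESeq2 1.42.0's Wald test, which the study's methods name, its size factors in edgeR, no filter or a stricter filter on low counts (at least 10 in at least 6 samples), the samples of 1 cell type, the replicate block, glmTreat around a log2 change of 1, and each sample left out in turn. Comparisons of the cell types within a treatment were added after seeing the data.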

Additional observations from a re-analysis of the deposited data

How the results depend on the processing

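All 260 log2 fold changes of the 5 genes against VC, over 7 alternatives and 6 fits with a sample left out, were above 0, while 27 lost a call and 27 gained one. The number of the 20 changes called was 9, against 19 with DESeq2, 9 with DESeq2's size factors, 15 with no filter on low counts, 9 with a stricter filter, 8 with the samples of 1 cell type, 16 with the replicate block and 5 with glmTreat, which tests against a log2 fold change of 1. Of the 5 genes, the number called in bEECs with rbCAPG was 2, against 4 with DESeq2, 4 with the samples of 1 cell type, 4 with the replicate block and 1 to 2 with a sample left out. Over all 7 alternatives it ran from 2 to 4. With rbPDI in bEECs it was 3, against 5 with DESeq2, 4 with the replicate block, 3 to 5 over all 7 alternatives and 2 to 3 with a sample left out. In bESCs the count with rbCAPG was 1, against 5 with DESeq2, 3 with no filter, 0 with the samples of 1 cell type, 3 with the replicate block, 0 with glmTreat and 0 to 1 with a sample left out. With rbPDI in bESCs it was 3, against 5 with DESeq2, 5 with no filter, 0 with the samples of 1 cell type, 5 with the replicate block, 0 with glmTreat and 0 to 3 with a sample left out. Between cell types the count with VC was 1, against 2 with DESeq2, 0 with glmTreat and 1 to 2 with a sample left out. With rbCAPG it was 2, against 3 with DESeq2, 1 with glmTreat and 1 to 3 with a sample left out, and with rbPDI it was 1, against 1 to 2. The replicate block changed no call between cell types or between the proteins. The cause of these differences was not tested, apart from fits with a sample left out, which hold fewer samples.

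The whole-table count of called genes moved too. It was 92 with rbCAPG in bEECs (44 to 392 over the alternatives), 145 with rbPDI (67 to 531), 17 with rbCAPG in bESCs (1 to 86) and 32 with rbPDI (1 to 189). With a sample left out, the counts were 48 to 77, 75 to 123, 0 to 20 and 7 to 43 in the same order. They moved by over 1.5 times in bEECs without VC replicate 1 (53 and 83), VC replicate 3 (48 and 75), rbCAPG replicate 3 (52) or rbPDI replicate 3 (93). In bESCs they did so without VC replicate 1 (0 and 7), VC replicate 3 (0 and 8), rbCAPG replicate 2 (6), rbPDI replicate 2 (16) or rbPDI replicate 3 (15). Beside the counts of 0 in edgeR, 536 and 471 genes had an unadjusted p under 0.05, and DESeq2 was not run with a sample left out.

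Some differences that were not called changed sign when a sample was left out. Between the cell types' changes with rbCAPG, the range was -0.55 to 0.043 for CXCL16, -1.45 to 0.42 for CCRL2 and -0.0025 to 1.32 for CCL5, and with rbPDI -1.69 to 0.18 for CCRL2. Between rbPDI and rbCAPG it was -0.17 to 0.33 for CXCL16 and -0.28 to 0.58 for CCRL2 in bEECs, and -0.41 to 0.91 for CX3CL1 in bESCs. Between the cell types it was -3.37 to 0.49 for CX3CL1 with VC, -0.36 to 0.42 for CCL5 and -1.27 to 0.84 for CCL20 with rbCAPG, and -0.85 to 0.021 for CCL20 with rbPDI. The CCL5 difference with rbCAPG was also -0.0050 with no filter and -0.0035 with a stricter filter, against 0.01. Depth limits the fold changes of CX3CL1, whose VC samples hold 3 reads or fewer, and of CCL20, with VC samples of 0, 3 and 5 reads among them.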
